A study of Mus musculus with 2 samples.

Results

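The SLAM family receptors and the adaptor SAP were followed in naive CD8+ T cells lacking Bcl11b and in their wild-type counterparts. The members were the 8 genes Cd244 (Cd244a in current nomenclature), Ly9, Slamf7, Cd48, Slamf1, Cd84, Slamf6 and Sh2d1a, taken by gene name from the gene spots of both arrays. They were represented by 15 probes, each in 1 spot, out of 43379 gene spots that covered 27597 gene names. Of the 8 genes, 7 were measured, against 9281 measured genes in all: a gene was measured if a probe of it stood well above background in the same genotype on both arrays.

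The knockout cells came from Bcl11bF/F/dLck-iCre mice, in which floxed Bcl11b alleles are cut by an iCre recombinase that the distal Lck promoter drives from a late thymic stage onward. Wild-type cells came from mice labelled only as such, with no statement on floxed or Cre alleles, and both genotypes have the C57BL/6 background. Cells of either genotype were sorted as CD8+ with low CD44 and low CD25, to a stated purity above 90%. The ages of the mice, and how many were pooled for a sample, are not given in the sources used here. Each of 2 two-colour arrays compared 1 knockout sample in Cy5 with 1 wild-type sample in Cy3, and the 2 are labelled as biological replicates. Pairs of values below are those of array 1 and array 2, and log2 ratios are knockout over wild type. The dyes ran the same way on both arrays, and an effect of the dye on a probe cannot be told apart from an effect of the genotype. The RNA was bulk RNA of sorted cells, in which more cells of a type and more RNA per cell cannot be told apart.

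SLAM receptors are surface proteins of the immunoglobulin superfamily whose genes stand side by side in a cluster. Most bind the same receptor on a neighbouring cell, while 2B4, the product of Cd244, binds CD48. Their cytoplasmic tails carry tyrosine motifs that recruit the small SH2 adaptors SAP (Sh2d1a) and EAT-2, and SAP brings in the kinase Fyn. In CD8+ T cells 2B4 is known from effector, memory and exhausted cells rather than from naive ones, and it is a standing receptor of natural killer (NK) cells.

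The arrays differed in quality. On array 1, 17276 gene spots were well above background in knockout and 10739 in wild type, and on array 2 the counts were 10955 in knockout and 13446 in wild type. Negative control spots had medians of 985 (array 1) and 1865 (array 2) in the knockout channel and 1087 and 1120 in the wild-type channel. Log2 ratios spread more widely on array 1 (SD 1.01 over genes) than on array 2 (SD 0.41). Bcl11b itself had log2 ratios of -1.45 and -1.73 (mean -1.59 ± 0.19, SD, n = 2) and did not pass (adjusted p = 0.0747, limma). It passed without background correction (adjusted p = 0.0404) and with both channels required above background (0.0390, both limma), while median centring gave -0.04 and -1.38 (mean -0.71). Under median centring the median measured gene itself lay at log2 ratios of 1.11 and 0.17, so 0 is not the level of the typical gene there. Its other probe gave -0.35 and -2.32 with loess. No genome was used here to place these probes against the floxed exon, so they check the labels only in part.

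**Figure D1:**
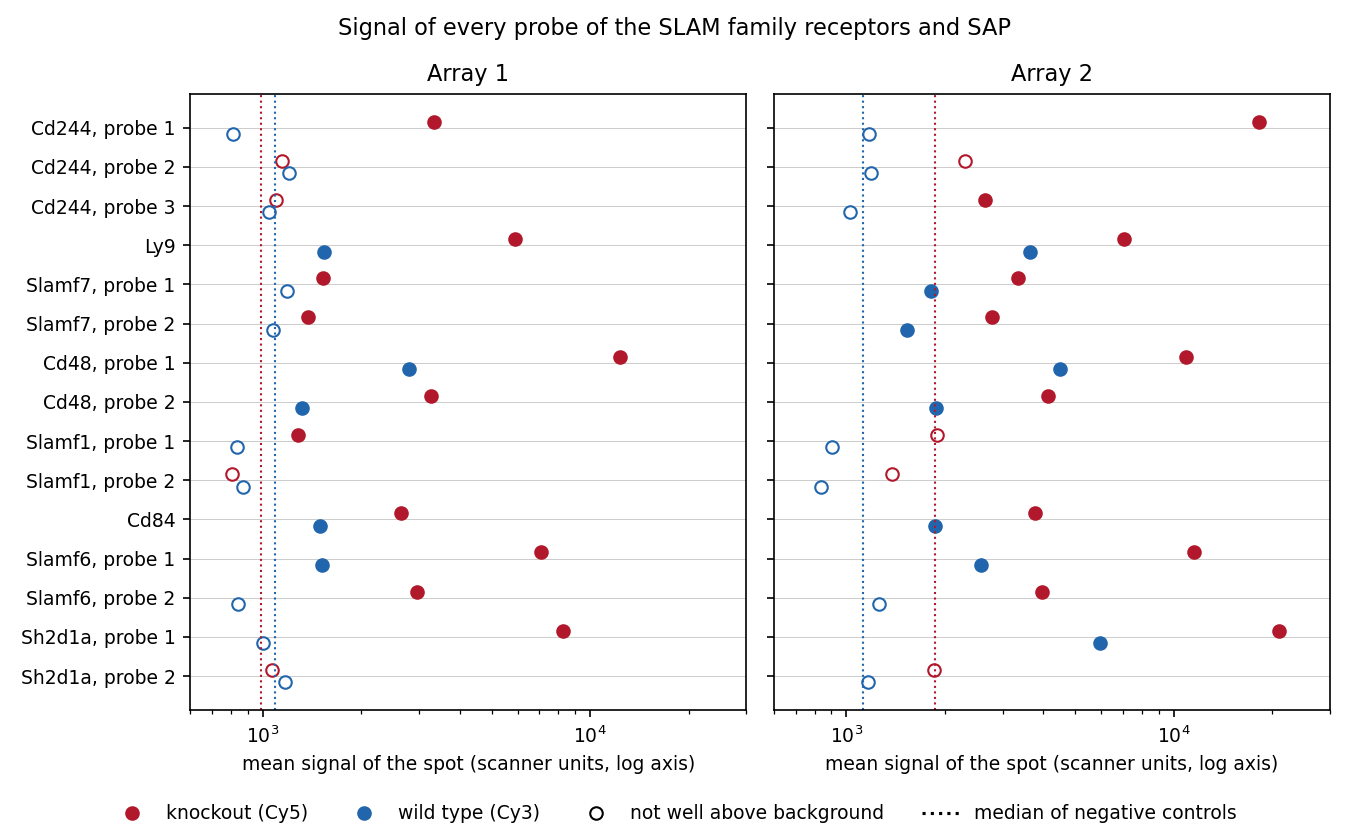
Mean spot signal (scanner units, log axis) of the 15 probes of the 8 genes on array 1 (left) and array 2 (right), knockout in red above wild type in blue; open circles were not well above background and dotted lines are the medians of the negative control spots in each channel. These signals precede dye normalisation, and most bright probes lie further right in knockout; wild type of the brightest Cd244 probe lies near its negative controls on both arrays.

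With the processing used here, the brightest Cd244 probe was at least 6.73-fold higher in knockout on the mean of both arrays. Without background correction its mean log2 ratio was 2.18, against 3.63. Sh2d1a rose on the strength of array 1. Slamf6 was more than 2-fold higher on both arrays, as processed here, without passing the test across all genes. The other measured receptors, Ly9, Slamf7, Cd48 and Cd84, had mean log2 ratios between 0.03 and 0.35. In counts, 2 of the 7 measured members were higher at an adjusted p under 0.05, against 1.24% of all measured genes. None was lower, against 0.248% (1.49% for either direction, limma). At an unadjusted p under 0.05 (limma), 3 members were higher and 0 lower, against 761 and 145 of all 9281 measured genes. On both arrays 5 of 7 had a log2 ratio above 0, against 30.9% of all genes, and none was below 0 on both, against 30.8%. The median of the 7 mean log2 ratios was 0.35, beside 0.04 over all genes. Cd244, Slamf7 and Sh2d1a, 3 of the 7, had been measured through the knockout channel alone, so these counts and the median are descriptions and cannot support a shift of the family.

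Cd244 was represented by 3 probes on mm8 chromosome 1, and the brightest one (chr1:173419775-173419834, plus strand) stood for the gene. Its signal was 3326 and 18201 in knockout, against 813 and 1174 in wild type. Knockout was well above background on both arrays and wild type on neither. After normalisation the log2 levels of the probe were 11.47 and 13.21 in knockout and 8.05 and 9.37 in wild type. The log2 ratios were 3.42 and 3.84 (adjusted p = 6.76e-10, limma). Since wild type was at background, the difference is given as a bound. On the mean of both arrays, Cd244 was at least 6.73-fold higher in knockout, on a scale open to dye bias. This bound holds for the processing used here, and without background correction the log2 ratios were 1.44 and 2.93. The probe was kept through the knockout channel alone, which favours a high ratio. The p-value is therefore no independent support for the rise.

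The other Cd244 probes were dimmer and showed less. The probe 0.801 kb further along (chr1:173420576-173420635) had signals of 1143 and 2301 in knockout and 1203 and 1193 in wild type, none of them well above background. Its log2 ratios were -0.16 and 0.37. The third probe (chr1:173414018-173414544), whose mapped span of 527 bases is longer than the 60 bases of the other Cd244 probes, gave 1099 and 2645 in knockout and 1046 and 1023 in wild type. It was well above background in knockout on array 2 only, with log2 ratios of 0.24 and 1.18, so Cd244 was well above background in knockout with 2 probes on array 2 and with 1 on array 1.

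Cd48, which encodes the ligand of 2B4 and, in rodents, of CD2, cleared background in all 4 channel readings of either probe. Its brighter probe (chr1:173541651-173541709) had signals of 12338 and 10949 in knockout, against 2800 and 4480 in wild type, before the dyes were brought to a common scale. Normalised log2 levels were 12.87 and 12.38 in knockout and 12.37 and 12.18 in wild type. The mean log2 ratio of 0.35 ± 0.21 (SD, n = 2) did not pass (adjusted p = 0.924, limma), with a 95% interval from -0.62 to 1.32. Intervals in this report rest on a standard error shared by all genes, not on the gene's own spread between arrays. The other probe (chr1:173532477-173532536) gave log2 ratios of 0.59 and 0.31. Both probes of the ligand gene had positive ratios on both arrays. With median centring in place of loess the brighter one gave 1.93 and 0.49 (mean 1.21, adjusted p = 0.296, limma). The median measured gene then had 1.11 and 0.17.

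Slamf6, which encodes Ly108, a receptor that binds itself and signals through SAP, had both probes higher in knockout on both arrays. The probe that stood for the gene (chr1:173773361-173774689) had signals of 7064 and 11564 in knockout, against 1511 and 2572 in wild type, all well above background. The normalised log2 levels were 12.12 and 12.48 in knockout and 11.02 and 11.18 in wild type. The mean log2 ratio was 1.19 ± 0.15 (SD, n = 2), a 2.29-fold higher signal, with 1.09 and 1.30 on the arrays. It did not pass over all genes (adjusted p = 0.312, unadjusted p = 0.0162, limma), and its 95% interval ran from 0.22 to 2.17.

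The dimmer Slamf6 probe (chr1:173780164-173780223) had signals of 2958 and 3964 in knockout, against 837 and 1258 in wild type, where neither array had it well above background. It gave log2 ratios of 3.07 and 1.29, a difference of at least 2.75-fold on the mean of both arrays. With the mean of both probes in place of the brighter one, Slamf6 passed (mean log2 ratio 1.69, adjusted p = 0.0279, limma). Only 1.12% of all measured genes were over 2-fold higher on both arrays, and Cd244 and Slamf6 were the 2 members among them. No member was over 2-fold lower on both, against 0.226% of all genes.

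Sh2d1a encodes SAP, the adaptor that couples SLAM receptors to Fyn. It is X-linked and lies apart from the receptor cluster. Its main probe (mm8 chrX:38766370-38766429) had signals of 8269 and 20950 in knockout, against 998 and 5964 in wild type. In wild type it was well above background on array 2 only, so the ratio of array 1 was taken against a channel at background. The log2 ratios were 2.81 and 0.67, with a mean of 1.74 ± 1.51 (SD, n = 2; adjusted p = 0.0360, limma), and without array 1 the value was 0.67. Sh2d1a passed with a spread between arrays almost as large as its mean, because 1 standard error of 0.50 was shared by all genes in the fit.

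The other Sh2d1a probe, designed on a cDNA clone (chrX:38767626-38767685), was not well above background in any channel and gave log2 ratios of -0.20 and -0.10. The sexes of the mice, which bear on an X-linked gene and on every comparison within an array, are not in the labels. Y-linked Ddx3y cleared background on array 1 for knockout alone, whereas array 2 had it for wild type alone, at log2 ratios of 2.30 and -2.04. Eif2s3y, also Y-linked, had the same pattern, at 1.99 and -2.98. Kdm5d, a further Y-linked gene, was well above background in knockout on array 1 only, at 3.20 and -2.46. Y-linked Uty was not well above background in any channel. Xist, the RNA of the inactive X chromosome, was well above background in knockout on array 2 only (log2 ratios 0.01 and 3.1 with its brightest probe). Another Xist probe gave 0.14 and 6.90. Sex-linked genes thus differed between the genotypes in different ways on the 2 arrays. The part of this in the values of Sh2d1a and of the other genes was not tested.

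**Figure D2:**
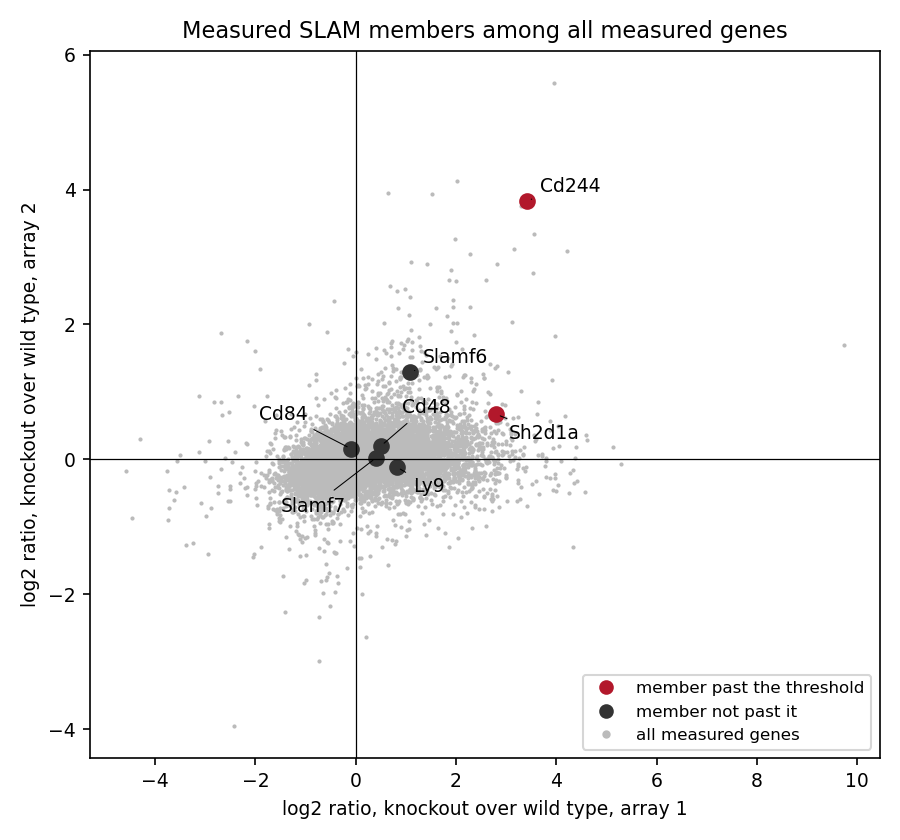
Log2 ratio of knockout over wild type on array 1 (horizontal) and array 2 (vertical) for the 7 measured members and all 9281 measured genes (grey). Cd244 and Slamf6 lie above 1 on both axes, while Sh2d1a lies far out on array 1 alone, at 2.81 against 0.67.

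Ly9, which encodes the self-binding receptor CD229, had 1 probe (chr1:173425288-173425334, minus strand). Its signals were 5897 and 7050 in knockout, against 1533 and 3634 in wild type, all well above background. The log2 ratios pointed opposite ways, at 0.82 and -0.11 (mean 0.35 ± 0.66, SD, n = 2; adjusted p = 0.924, limma; 95% interval -0.62 to 1.33). With median centring the mean of Ly9 was 1.10, where the median measured gene had 0.68. Cd84, another self-binding receptor, also had 1 probe (chr1:173723130-173723189), with signals of 2643 and 3770 in knockout, against 1495 and 1869 in wild type. Its log2 ratios were -0.10 and 0.16, and the mean of 0.03 ± 0.18 (SD, n = 2; adjusted p = 0.994, limma; 95% interval -0.94 to 1.00) was the one nearest to 0 among the measured members. With median centring Slamf7 at 0.27 was nearest to 0 and Cd84 had 0.55, where the median measured gene had 0.68.

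Slamf7, which encodes CRACC, a self-binding receptor that signals through EAT-2 rather than SAP, was dim. Its brighter probe (chr1:173475843-173475902, minus strand) had signals of 1526 and 3346 in knockout, against 1181 and 1808 in wild type, where it was well above background on array 2 only. The log2 ratios were 0.41 and 0.02 (mean 0.22 ± 0.27, SD, n = 2; adjusted p = 0.954, limma; 95% interval -0.76 to 1.19). The other probe (chr1:173469995-173470054) gave 0.66 and 0.09. On array 2, where both genotypes were above background, neither probe moved by more than 0.09.

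Slamf1, which encodes the founding receptor SLAM (CD150), was the member not measured. Its brighter probe (chr1:173636887-173636946) had signals of 1278 and 1893 in knockout, against 831 and 903 in wild type, and was well above background in knockout on array 1 only. Its log2 ratios of 1.59 and 0.84 were not tested. The other probe (chr1:173624677-173628995) was not well above background in any channel and gave -0.01 and 0.11. A difference in Slamf1 was not detectable at these signals.

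The starts of the receptor genes are shown for Cd244a, Slamf6 and Cd48 because the first 2 were over 2-fold higher on both arrays and the third, which lies between them in the cluster, was not. The lines give the 250 bases before each start, 5′ to 3′, from RefSeq on GRCm38.p6, all on the plus strand: chr1:171558943-171559192 for Cd244a, chr1:171917212-171917461 for Slamf6 and chr1:171681742-171681991 for Cd48. Capitals mark E-boxes (CANNTG, the core bound by E proteins), Runx motifs (TGTGGT) and T-box half-sites (GGTGTGA), searched on both strands.
Cd244a: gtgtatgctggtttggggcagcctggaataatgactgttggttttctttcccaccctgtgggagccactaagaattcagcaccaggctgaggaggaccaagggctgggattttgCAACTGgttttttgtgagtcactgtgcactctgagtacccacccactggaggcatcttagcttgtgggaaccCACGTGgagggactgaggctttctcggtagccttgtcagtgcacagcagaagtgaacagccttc
Slamf6: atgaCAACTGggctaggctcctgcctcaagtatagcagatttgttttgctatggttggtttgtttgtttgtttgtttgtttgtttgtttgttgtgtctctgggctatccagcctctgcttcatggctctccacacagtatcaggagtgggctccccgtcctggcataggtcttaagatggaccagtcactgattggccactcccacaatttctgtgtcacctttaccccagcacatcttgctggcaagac
Cd48: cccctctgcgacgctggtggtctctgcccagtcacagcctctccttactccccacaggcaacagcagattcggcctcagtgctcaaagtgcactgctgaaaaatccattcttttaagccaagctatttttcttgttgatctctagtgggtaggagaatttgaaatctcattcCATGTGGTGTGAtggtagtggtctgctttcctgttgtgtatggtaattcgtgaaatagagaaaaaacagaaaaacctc

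Cd244a held 2 E-boxes in this window, from 136 to 131 and from 64 to 59 bases before the start, and Slamf6 held 1, from 246 to 241. Cd48 held 1 E-box, from 78 to 73, which overlaps a Runx motif from 76 to 71 and a T-box half-site from 73 to 67. Of 32851 promoter windows of this length, 66.2% held an E-box, 14% a Runx motif and 3.33% a T-box half-site. A motif of GATA factors, spelled AGATAA and held by 9.99% of windows, was in none of the 3 shown. The same held for the Ets motif AGGAAG, in 29.5% of windows, and for the box TATAAA, in 12.4%. Promoter entries were matched for 6 of the 8 members, and each of the 6 windows held at least 1 E-box. These are matches of letters, and no binding was measured here.

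The receptor genes share 1 stretch of chromosome 1, and the measured genes within 1 Mb on either side of their probes were read as neighbours. Of 74 gene names placed there by the array design, 27 were measured. Of these, 1 rose, against 1.24% of all measured genes, none fell, against 0.248%, and 26 did not pass (limma). At an unadjusted p under 0.05 (limma), 3 of the 27 were higher and 0 lower, against 761 and 145 of all 9281 measured genes. The median log2 ratio of the 27 was 0.10, beside 0.04 over all measured genes. The gene that rose was Fcer1g, the common gamma chain through which Fc receptors and some NK receptors signal, at -353 kb from the brightest Cd244 probe (negative distances run to lower coordinates). With the processing used here, it was at least 20.9-fold higher in knockout on the mean of both arrays. Its log2 ratios were 3.95 and 5.58 (adjusted p = 4.98e-18, limma). Without background correction these were 2.25 and 4.74. The other kept probe of Fcer1g gave 1.45 and 4.14, and both probes were kept through the knockout channel alone. Of the 27, 8 were measured through the knockout channel alone.

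Fcgr3, an Fc receptor gene at -532 kb, had log2 ratios of 0.81 and 2.50 (adjusted p = 0.0551, limma), with wild type at background on both arrays. AK089750, a cDNA clone placed between Cd84 and Slamf6 at 335 kb after Cd244, had 2.59 and 0.63 (adjusted p = 0.0676, limma). Atf6, a transcription factor of the unfolded protein response, had 0.84 and 0.75, and Cfap126 had 0.55 and 0.86, neither near the threshold. In wild type AK089750 and Cfap126 were not well above background on either array, and Atf6 was on array 2 only. Between Cd244 and Slamf6, in contrast, the receptor genes Ly9, Slamf7, Cd48 and Cd84 had mean log2 ratios of 0.35, 0.22, 0.35 and 0.03. The probe of Ly9 lies 5.51 kb from that of Cd244.

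**Figure D3:**
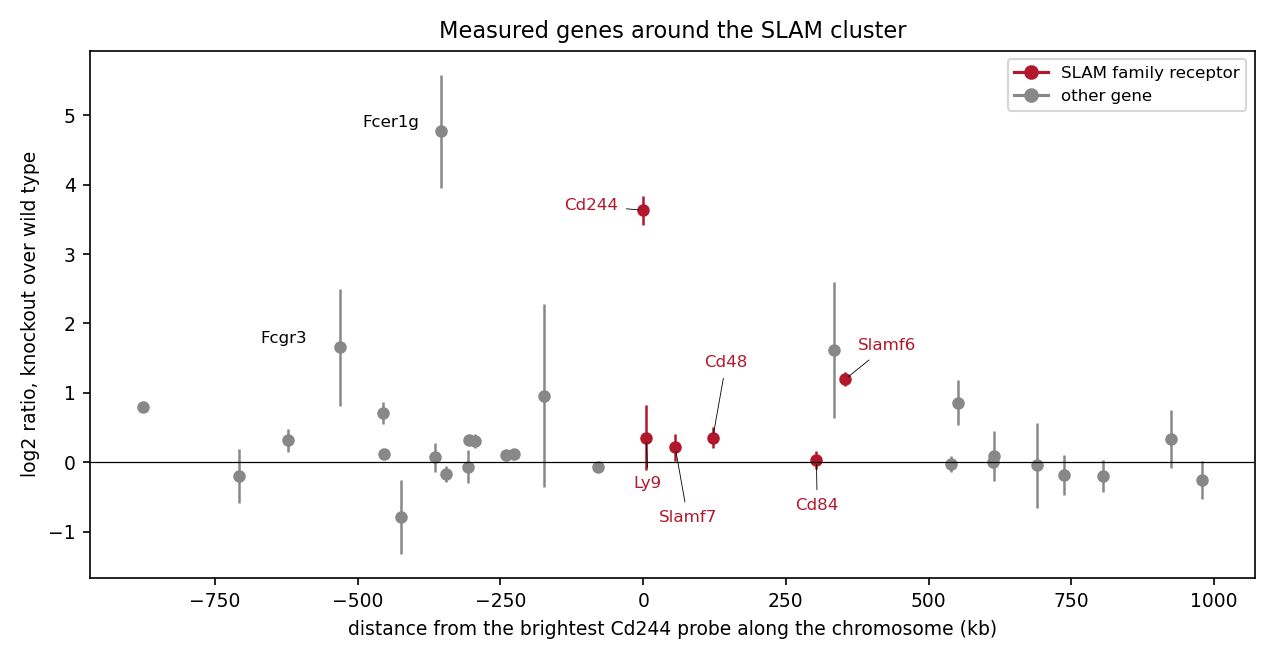
Mean log2 ratio of knockout over wild type (points; lines span the values of arrays 1 and 2) against distance in kb from the brightest Cd244 probe, for the 6 measured SLAM receptors (red) and 27 other measured genes (grey). Cd244 (3.63) and Fcer1g (4.76, at -353 kb) stand highest, both with wild type at background, so their plotted ratios are not exact sizes.

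The partners of SLAM receptors were examined as a list of 37 genes that held the remaining receptors and adaptors, kinases, phosphatases and downstream factors. Of 23 measured, none rose or fell, against 1.24% and 0.248% of all measured genes (limma). At an unadjusted p under 0.05 (limma), 3 of the 23 were higher and 0 lower, against 761 and 145 of all 9281 measured genes. The median of the partners' mean log2 ratios was 0.10, beside 0.04 over all genes. On both arrays 10 of 23 were above 0, against 30.9% of all genes. The partners nearest to a change on both arrays were Gata3, a T cell transcription factor linked to SAP signalling, at 2.03 and 0.97 (adjusted p = 0.112, limma), and Plcg2, a phospholipase of receptor signalling, at 0.71 and 1.66 (adjusted p = 0.317, limma). In wild type Gata3 was well above background on array 2 only, so its ratio of array 1 was taken against a channel at background. Nfkb1, a subunit of NF-kappaB, had 0.92 and 0.52, and Inpp5d, which encodes the phosphatase SHIP1, had 0.49 and 0.58.

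The other adaptor, EAT-2 (Sh2d1b1), was not well above background with either probe in either genotype, at log2 ratios of -0.34 and -0.18 with the brighter one. The kinase gene Fyn, which acts next to SAP, was well above background in knockout on 1 array alone and was not tested (0.88 and -0.18). Lck, a related kinase, had 0.19 and 0.01 and did not pass (adjusted p = 0.978, limma). Cd2, which encodes the CD48-binding receptor of T cells, had 0.66 and 0.42 (adjusted p = 0.868, limma). The family members Slamf8 and Slamf9 were not measured. Slamf8 was well above background in knockout on array 1 only, and Slamf9 in no channel.

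Because 2B4 and Ly108 are carried by other leukocytes too, markers of the cell types a sort might hold were read beside them. Of 11 measured CD8 T cell markers none passed, against 1.49% of all genes (limma). At an unadjusted p under 0.05 (limma), 2 were higher and 1 lower, against 761 and 145 of all 9281 measured genes. The summed normalised signal of the 11 markers was 583268 and 512688 in knockout, against 456839 and 388022 in wild type. Cd8b1 weighs most in the knockout sums. Its normalised log2 levels were 17.40 and 17.54 in knockout and 16.30 and 16.61 in wild type. Log2 ratios were above 0 on both arrays for 7 of the 11. They were below 0 on both for 2, Cd5 (-0.69 and -1.80) and Lat (-0.53 and -0.21). Of 8 NK cell markers 7 were measured, 4 of them through the knockout channel alone, and 3 rose (Klrb1c, Fcer1g and Tyrobp), against 1.24% of all genes, with sums of 69226 and 144294 in knockout, against 33633 and 32861 in wild type. The other 4 did not pass: the receptor genes Klrk1 and Klrd1 had log2 ratios of 1.26 and 1.82 and of 0.81 and 1.16, the transcription factor gene Eomes 0.63 and 0.74, and Ncr1, largely restricted to NK cells and their innate relatives, -0.20 and 0.86. Ncr1 was the 1 measured NK marker with opposite signs on the arrays. The summed NK marker signal was higher in knockout on both arrays. Klrd1, which did not pass, weighs most in these sums. Its normalised log2 levels, the highest of the 7 in every reading, were 15.51 and 15.65 in knockout and 14.70 and 14.50 in wild type.

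Of 11 myeloid markers 9 were measured, 8 of them through the knockout channel alone, and 5 passed as higher (Adgre1, Csf1r, Lyz2, C1qc and Itgax), against 1.24% of all genes, with sums of 21952 and 25506 in knockout, against 4513 and 11847 in wild type. The call of Lyz2 rests on array 1, since its log2 ratios were 4.03 and -0.38. The other 4 measured myeloid markers did not pass. C1qa, C1qb and Fcgr3 had log2 ratios above 0 on both arrays, with means of 1.04, 0.733 and 1.66. Cd14 had log2 ratios below 0 on both arrays, at -0.398 and -0.0801. It was well above background in wild type on both arrays and in knockout on array 1 only. Itgam and Cd68 were not well above background in any channel. Of 7 B and plasma cell markers 3 were measured and none passed, with sums of 7310 and 5714 in knockout, against 6635 and 5218 in wild type. At an unadjusted p under 0.05 (limma) 1 was higher, against 761 of all 9281 measured genes. Cd79b, well above background in every reading, had log2 ratios of -0.51 and -0.14. Ms4a1 had 1.28 and 0.38 and Blnk 2.23 and 0.59, both well above background in knockout on both arrays. Cd79a, a chain of the B cell receptor, was not well above background in any channel. None of the 3 markers of NKT and gamma delta T cells was measured. Of the 2 CD4 T cell markers, Cd4 had log2 ratios of -0.65 and -0.21 and did not pass (adjusted p = 0.913, limma). Zbtb7b had 0.54 and 1.37, was well above background in knockout on array 2 only, and was not tested. The part of these cells in the values of Cd244, Slamf6 and Sh2d1a was not tested.

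The genes most like the passing members were sought by the distance between their pairs of log2 ratios over the 2 arrays. Nearest to Cd244 were Srsf12, a splicing regulator (3.29 and 3.76, distance 0.16), Slc40a1, which encodes the iron exporter ferroportin (3.56 and 3.34, distance 0.52), and C1qc, a complement gene of macrophages (3.16 and 3.12, distance 0.77). In wild type none of the 3 was well above background on either array, as for Cd244. Nearest to Sh2d1a were Chordc1 (2.88 and 0.66, distance 0.07), Pdia4, a protein disulfide isomerase (2.78 and 0.74, distance 0.08), and Ap3s1, an adaptor complex subunit (2.86 and 0.73, distance 0.09). With 2 arrays, these distances describe the ratios alone.

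The calls of Cd244 and Sh2d1a changed with the processing, while their directions did not. Cd244 was higher in knockout on both arrays under every alternative that kept it, with mean log2 ratios from 2.18 without background correction to 6.07 with the scanner software's processed signals. Its call was lost with those signals (adjusted p = 0.437), with the deposited value table (0.449), with log ratios scaled to 1 spread (0.372) and without a filter on dim probes (0.457; all limma). Slamf6 kept mean log2 ratios between 0.96 and 1.97. On array 1 it was less than 2-fold higher without background correction (log2 ratio 0.80) and with scaled log ratios (0.85). Sh2d1a kept its direction on both arrays, at 0.62 to 1.02 on array 2 and 1.72 to 5.95 on array 1, and lost its call under 7 of the 10 alternatives that gave it a test.

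**Figure D4:**
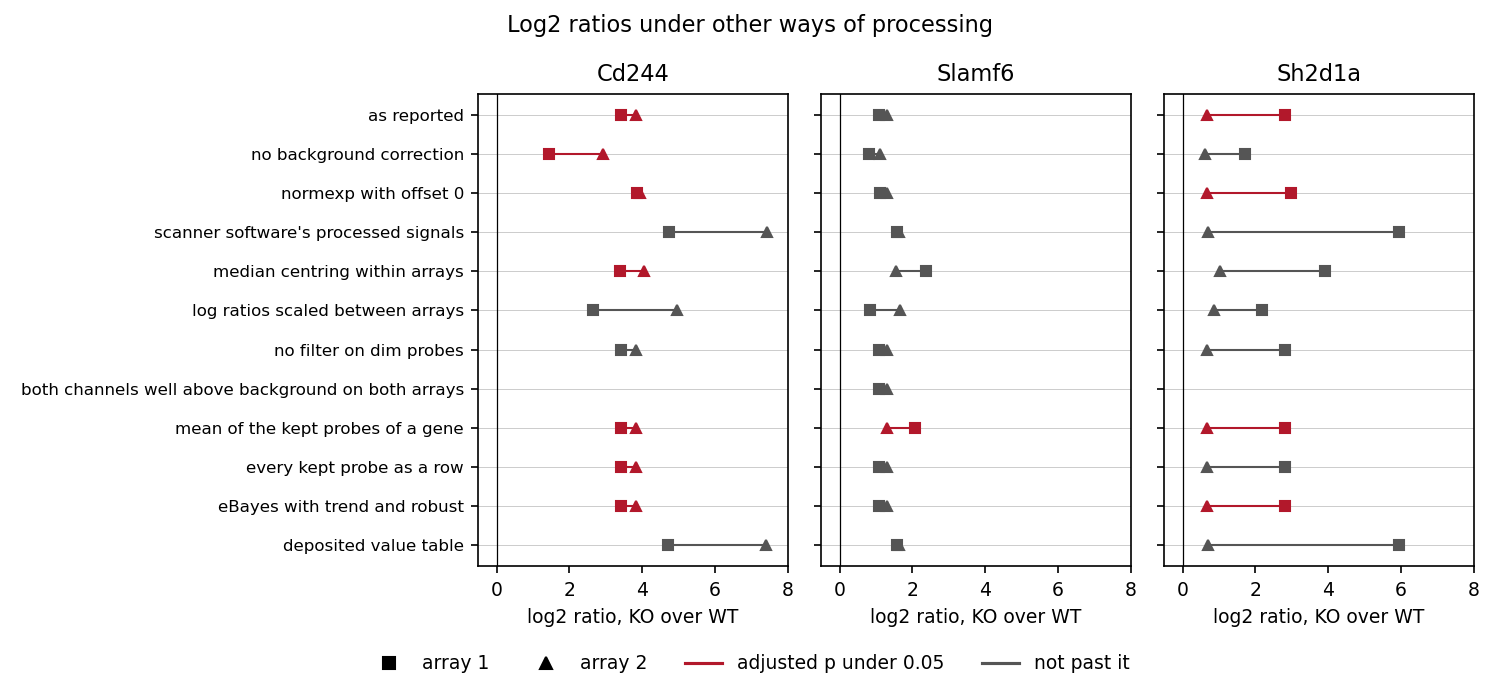
Log2 ratios of Cd244, Slamf6 and Sh2d1a on array 1 (squares) and array 2 (triangles) as reported and under 11 other ways of processing, red where the adjusted p was under 0.05. All values lie above 0. Cd244 and Sh2d1a have no value where both channels had to be well above background.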

How the data were processed

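Sorted CD8+ T cells were profiled on 2 two-colour Agilent arrays on 1 slide, and the spots were read by Agilent Feature Extraction 9.5.3.1 (version per the submitters' processing notes); there was no batch to test. Per the file headers, the deposited scanner files hold spot and local background intensity values, not normalised, and a log10 ratio (Cy5 over Cy3) after the software's background subtraction and dye normalisation. The deposited value table matched that log10 ratio within 0.005, with column medians of 0 and 0. Probe coordinates (mm8) come from the array design.

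Here intensities were corrected by normexp (offset 50) and normalised by loess with limma 3.58.1 in R 4.3.3, leaving out control and flagged spots. A probe was kept if 1 of its channels cleared background on array 1 and array 2 alike, and the brightest kept probe stood for its gene. Two-sided tests of the mean log2 ratio used lmFit and eBayes, and p-values were adjusted over 9281 genes (Benjamini-Hochberg). Every gene has 1 residual degree of freedom, the prior degrees of freedom were infinite and all genes shared a standard error of 0.50, so a mean of at least 1.68 in size passed, also for 19 genes with opposite signs on the arrays. Bounds compare log2 channel values after Aquantile normalisation with the lowest signal well above background, or the dim probe's own if higher. They are means over both arrays and need not hold on each array. Intervals are at 95% and use this shared standard error, so all have the same width. Of 41174 probes, accessions in the RefSeq gene table (GRCm38.p6) named 24375, current symbols another 6301 and older symbols 2426, while 8072 kept the file's name.

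All members were named, with every probe. From the partner and neighbour lists, passing genes and the 4 others with the largest ratio common to both arrays were named, and of like genes the 3 nearest; Fyn, Lck, Cd2, Sh2d1b1, Slamf8, Slamf9 and the markers were chosen for their role. The members and lists were chosen with earlier results of these data known. Alternatives changed the background correction, normalisation, filter, choice of probe, spread estimate and source of the values.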

Additional observations from a re-analysis of the deposited data

How the results depend on the processing

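The test was paired by its design, because each log2 ratio compares 1 knockout with 1 wild-type sample within an array, and the 2 arrays form 1 group. Of 2 members called higher, 1 was called without background correction, with median centring and with every probe as a row, and 0 with the scanner software's signals, the deposited value table, scaled ratios, no filter, or both channels required above background (which removes Cd244 and Sh2d1a). Over all genes, 115 were higher and 23 lower, against 26 and 6 without background correction, 73 and 1 with median centring, 26 and 14 with both channels required, 27 and 2 by probe, 220 and 46 with a robust intensity trend, and 0 and 0 with the software's signals, the value table, scaled ratios or no filter (575, 571, 910 and 2478 at an unadjusted p under 0.05, limma). Median centring moved the median gene to a log2 ratio of 0.68 and the share of higher calls to 98.6%, against 83.3% as reported, and both channels gave 65.0%. The 1 neighbour called became 2 with offset 0, 3 with probe means and 4 with the robust trend, and 0 with the software's signals, the value table, scaled ratios, no filter or both channels. On single arrays, Ly9 ranged from -0.11 to 0.82 and Cd84 from -0.10 to 0.16; the other measured members kept their sign in all alternatives run. 1 array allows no test. Dim wild-type channels limit Cd244, Slamf1, Slamf7 and Sh2d1a. The causes were not tested.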
